A study of Rattus norvegicus with 9 samples.

Results

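Oxidative phosphorylation genes were examined in cultured rat neural stem cells (NSCs), cells that can give rise to neurons and glia. Members were taken by gene name: nuclear genes whose symbols begin with Ndufa, Ndufb, Ndufc, Ndufs, Ndufv, Uqcr, Cox4 to Cox8 or Atp5, the 4 Sdh genes, and the 13 protein genes of the mitochondrial genome. The count table held 110 such genes among 23953, 97 of them nuclear and 13 mitochondrial. Of the nuclear members, 84 are subunit genes (37 of complex I, 4 of complex II, 8 of complex III, 18 of complex IV and 17 of complex V). The name rule also took in 8 complex I assembly factors (Ndufaf), 3 extra gene copies (Ndufb4b, Ndufb4c and Ndufs6b), the pseudogene Ndufab1-ps and the supercomplex factor Cox7a2l. Of all 110 members, 97 carried the KEGG annotation for oxidative phosphorylation, 84 nuclear and 13 mitochondrial.

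RNA-seq libraries came from NSCs, all cultured in differentiation medium. The paper describes NSCs from neonatal rat spinal cord, used at the second generation in its differentiation assays. It names Sprague-Dawley as the strain of its rats without tying that to the NSCs. The Con group received nothing more, the Exo group received exosomes secreted by bone marrow mesenchymal stem cells (BMSCs), and the pLV-Exo-Wnt5a group received exosomes of BMSCs that overexpressed Wnt5a from a lentiviral vector. Each group had 3 libraries. According to the methods, the Exo exosomes came from BMSCs that carried the empty lentiviral vector, whereas Con cells received no exosomes. The methods name replicates of each group for the differentiation assays in multi-well plates, but do not tie the 3 libraries of a group to separate animals or wells, so p-values measure only the spread between these samples, which may be technical. Age in days and the time of RNA collection are not given in the sources used here.

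Oxidative phosphorylation takes place in the inner mitochondrial membrane. Complexes I to IV pass electrons from NADH and succinate to oxygen and, except for complex II, pump protons, and complex V (ATP synthase) uses the proton gradient to make ATP. Complex II is coded wholly by nuclear genes, whereas the other complexes combine nuclear subunits with core subunits coded in mitochondrial DNA. Mitochondrial genes are transcribed as long precursors from both strands and cut into single RNAs, whereas each nuclear subunit gene has its own promoter. Neurons depend heavily on this pathway, and NSCs on glycolysis more than their neuronal progeny do.

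Total counts ranged from 32765138 to 40427647 per library. A count of 3, the limit that a count of 0 allows, was 0.0742 to 0.0916 CPM (the count divided by the library total, on a common scale), covering counting error only. Con replicate 1 stood apart: the chi-square per degree of freedom between replicates was 34.9 and 48.4 for its pairs and 7.33 for the other Con pair, so the main counts and medians that include Con are also given without it. NSC markers (14 genes) summed to 4086 to 4313 CPM in Con, 3545 to 4142 in Exo and 3936 to 5024 in pLV-Exo-Wnt5a, with none of the 14 at 3 counts or fewer throughout a group. Neuron markers (14 genes) summed to 5512 to 5635, 5514 to 6513 and 5367 to 6726 CPM in the same order, so neuronal transcripts were present beside those of stem cells. Astrocyte markers (12 genes) summed to 8452 to 9714, 8506 to 8690 and 9731 to 10325 CPM, and without Gfap the other 11 summed to 6190 to 6659, 6301 to 6412 and 5650 to 6295 CPM, so the high sum in pLV-Exo-Wnt5a lay in Gfap. Oligodendrocyte markers summed to 3022 to 3419, 2781 to 3068 and 2702 to 2986 CPM, with Con above pLV-Exo-Wnt5a. Microglia and macrophage markers summed to 71.2 to 75.3, 56.7 to 64.2 and 67.2 to 69.6 CPM, and these 3 groups did not overlap. Mesenchymal markers summed to 185 to 218 CPM over all 9 libraries. Of the microglia markers, Tmem119 stayed at 3 counts or fewer in every Exo library and Ptprc in every Con and Exo library. The part of cell composition in the values that follow was not tested, and in bulk RNA fewer cells of a type cannot be told apart from less RNA per cell.

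Nuclear members took 1.26% to 1.50% of all counts and mitochondrial members 0.722% to 1.13%. Nuclear members held 1.50%, 1.40% and 1.36% of all counts in Con replicates 1, 2 and 3. In Exo the nuclear share was 1.34%, 1.36% and 1.33%, and in pLV-Exo-Wnt5a it was 1.29%, 1.26% and 1.34%. Exo overlapped Con only through the lowest Con library, and pLV-Exo-Wnt5a lay below every Con library and overlapped Exo through replicate 3. Mitochondrial members held 0.722%, 1.05% and 1.13% in Con, 1.06%, 0.828% and 0.978% in Exo, and 1.08%, 0.925% and 0.960% in pLV-Exo-Wnt5a. The mitochondrial share was lowest in Con replicate 1, and the 3 groups overlapped.

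The ratio of summed mitochondrial to summed nuclear counts does not depend on scaling between libraries. It was 0.483, 0.751 and 0.831 in Con, 0.790, 0.607 and 0.733 in Exo, and 0.835, 0.737 and 0.719 in pLV-Exo-Wnt5a. On the log2 scale the means were -0.58 ± 0.42 in Con, -0.50 ± 0.20 in Exo and -0.39 ± 0.12 in pLV-Exo-Wnt5a (SD, n = 3 each). The differences were 0.07 (Exo minus Con), 0.11 (pLV-Exo-Wnt5a minus Exo) and 0.18 (pLV-Exo-Wnt5a minus Con), each within the spread between replicates. With COX1 left out, the same differences were 0.38, -0.23 and 0.16, where the SD within groups was 0.22 in Con, 0.31 in Exo and 0.34 in pLV-Exo-Wnt5a and the groups overlapped. The Exo log2 ratios without COX1 were -1.17, -1.80 and -1.54, so replicate 1 raised the Exo mean. With COX1 kept and Con replicate 1 left out, the differences from Con were -0.16 for Exo and -0.05 for pLV-Exo-Wnt5a. With COX1 also left out, the mean log2 ratio was -1.77 in Con without replicate 1, -1.51 in Exo and -1.73 in pLV-Exo-Wnt5a. No shift in the balance of the 2 genomes was detectable in the sums over all members.

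**Figure D1:**
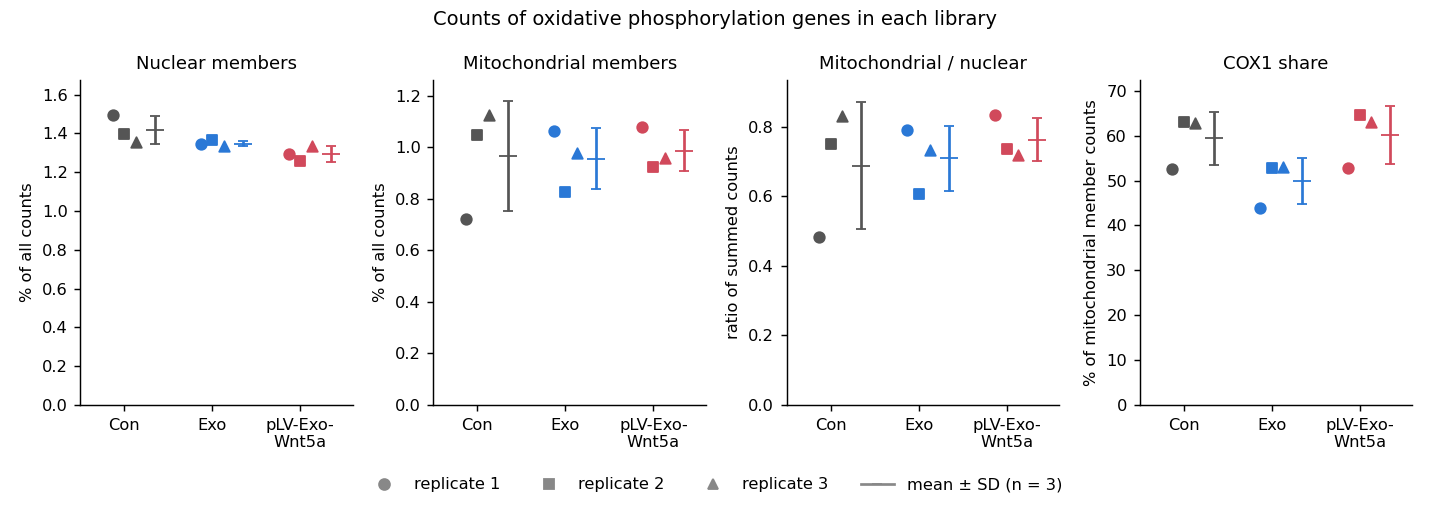
Share of all counts held by nuclear and by mitochondrial members (%), the ratio of mitochondrial to nuclear counts, and the share of mitochondrial counts held by COX1 (%), with each library as a point and the mean ± SD of 3 libraries beside it. Con replicate 1 has the highest nuclear share (1.50%) and the lowest mitochondrial share (0.722%), and in each group replicate 1 has the lowest COX1 share.

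Within the mitochondrial genome, COX1, the catalytic subunit of cytochrome c oxidase, held the most counts in every library. Its share of mitochondrial counts was 52.5%, 63.0% and 62.7% in Con, 43.9%, 52.7% and 53.1% in Exo, and 52.8%, 64.7% and 63.0% in pLV-Exo-Wnt5a. The 7 ND genes of complex I together held 37.4%, 29.3% and 30.1% in Con, 46.1%, 37.6% and 38.4% in Exo, and 39.4%, 28.1% and 29.4% in pLV-Exo-Wnt5a. All Exo libraries thus had a larger ND share than any Con library, and pLV-Exo-Wnt5a overlapped both. Shares of counts depend on gene length, which is not used here, so they are not levels to be compared between genes.

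The ratio of ND5 to COX1 counts kept the Exo group apart. It was 0.204 to 0.286 in Con, 0.321 to 0.439 in Exo and 0.201 to 0.314 in pLV-Exo-Wnt5a, so each Exo library lay above the libraries of both other groups. The ratio was chosen after its values were seen and is given as a description.

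COX1 was measured at 3933, 6612 and 7058 CPM in Con, 4672, 4303 and 5220 CPM in Exo and 5710, 5972 and 5919 CPM in pLV-Exo-Wnt5a. The pLV-Exo-Wnt5a libraries all lay above the Exo libraries, and both groups lay between the lowest and the highest Con library. For pLV-Exo-Wnt5a versus Exo the log2 fold change (log2FC) was 0.32 (standard error 0.07, Q = 0.0882, quasi-likelihood test in edgeR, adjusted over all genes by Benjamini-Hochberg). COX1 had the smallest Q of any member in the 3 comparisons. It was below 0.05 with DESeq2 on the 2 groups (0.00609), without the filter on low counts (0.00188) and without Exo replicate 3 (0.0253). With DESeq2 and with edgeR on all 9 libraries, where the Con spread enters, it was not past an unadjusted p of 0.05.

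ND5, a proton-pumping subunit of complex I, was at 1126, 1397 and 1440 CPM in Con, 2052, 1509 and 1675 CPM in Exo and 1791, 1203 and 1400 CPM in pLV-Exo-Wnt5a. Each Exo library lay above each Con library, with a log2FC of 0.39 (standard error 0.12, Q = 0.265, edgeR). Without the filter on low counts Q was 0.0338 (edgeR). ND3, another complex I subunit, was at 19.6, 28.8 and 40.6 CPM in Con and 71.3, 32.3 and 39.1 CPM in Exo, where the groups overlapped (log2FC 0.67, standard error 0.30, Q = 0.330, edgeR). In pLV-Exo-Wnt5a it was at 55.6, 31.5 and 24.8 CPM.

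ND2 varied most within groups. It was at 757, 663 and 869 CPM in Con, 1361, 572 and 1051 CPM in Exo and 1269, 540 and 503 CPM in pLV-Exo-Wnt5a. High values sat in Exo replicates 1 and 3 and pLV-Exo-Wnt5a replicate 1, so the group labels did not order this gene. ND6, the one mitochondrial protein gene coded on the opposite strand, was at 28.2 to 39.0 CPM in Con, 31.0 to 87.2 in Exo and 25.0 to 53.2 in pLV-Exo-Wnt5a. How strand was treated in counting is not given, so reads of ND6 and of RNA from the other strand cannot be told apart.

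CYTB, the mitochondrial subunit of complex III, was at 719, 756 and 744 CPM in Con, 974, 730 and 768 CPM in Exo and 785, 611 and 665 CPM in pLV-Exo-Wnt5a (log2FC -0.25 for pLV-Exo-Wnt5a versus Exo, Q = 0.399, edgeR). ND4 was the steadiest mitochondrial gene, at 236 to 255 CPM in Con, 245 to 282 in Exo and 213 to 238 in pLV-Exo-Wnt5a. The last range lay below the Exo range (log2FC -0.18, standard error 0.07, Q = 0.334, edgeR). ND1 ranged from 559 to 1049 CPM over the 9 libraries, with its highest value in Exo replicate 1.

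**Figure D2:**
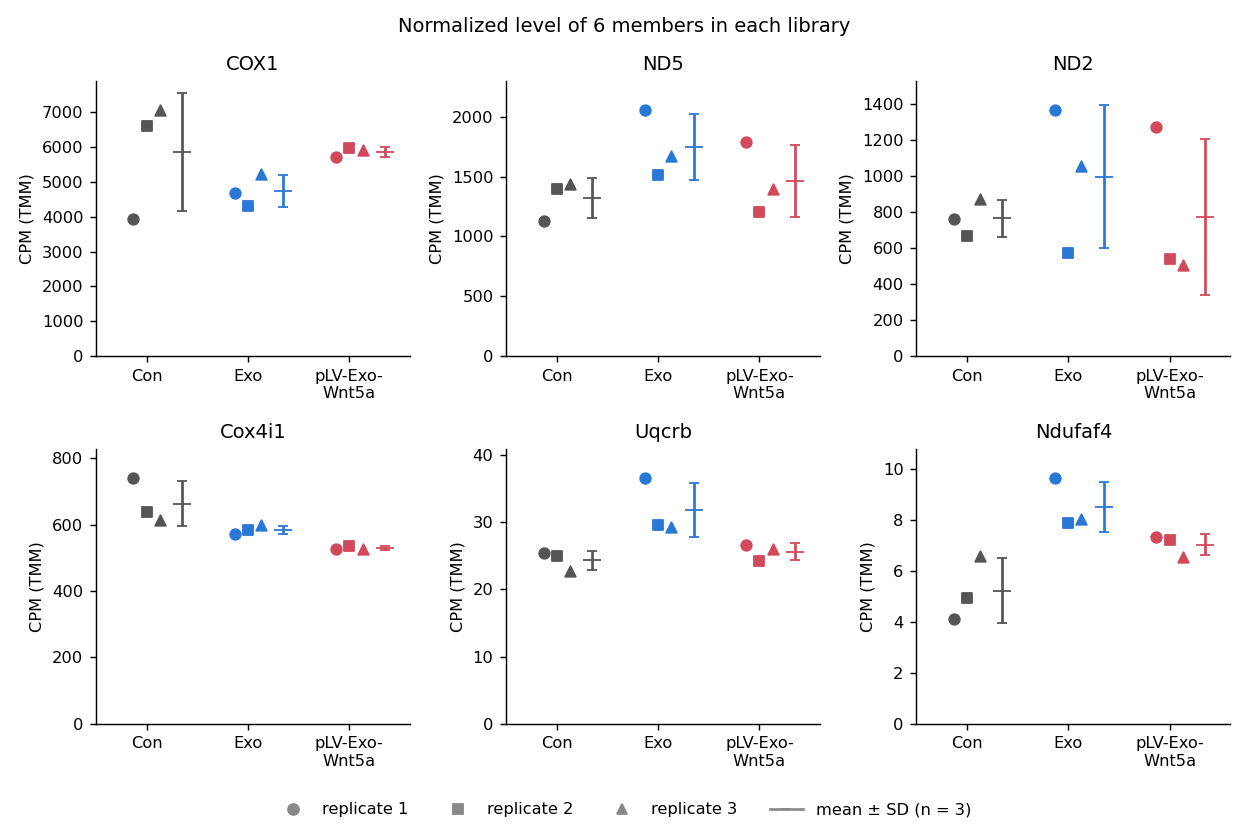
Normalized level (CPM, TMM) of COX1, ND5 and ND2 from the mitochondrial genome and Cox4i1, Uqcrb and Ndufaf4 from the nuclear genome, with a point for each library and the mean ± SD of 3 libraries. COX1 in Con runs from 3933 to 7058 CPM, ND2 splits within Exo and pLV-Exo-Wnt5a, and Cox4i1 lies between 526 and 537 CPM in pLV-Exo-Wnt5a, below all libraries of the other groups.

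COX2, ATP8, ATP6 and COX3, which lie next to each other behind COX1, received few reads. Together they held 0.471% to 0.577% of mitochondrial counts in Con, 0.597% to 0.814% in Exo and 0.525% to 0.573% in pLV-Exo-Wnt5a. COX2 was at 10.9 to 21.6 CPM, COX3 at 16.0 to 59.3 CPM and ATP6 at 3.63 to 8.25 CPM over the 9 libraries. ATP8, whose reading frame overlaps ATP6, had counts of 5, 3 and 9 in Con, 10, 4 and 3 in Exo and 16, 1 and 4 in pLV-Exo-Wnt5a, and did not pass the filter on low counts. ND4L, whose frame overlaps ND4, was at 0.873 to 1.37 CPM. Reads shared between overlapping genes, or with copies of mitochondrial DNA in the nuclear genome, could be assigned either way, and how they were assigned is not given, so the low counts of these genes are uncertain.

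**Figure D3:**
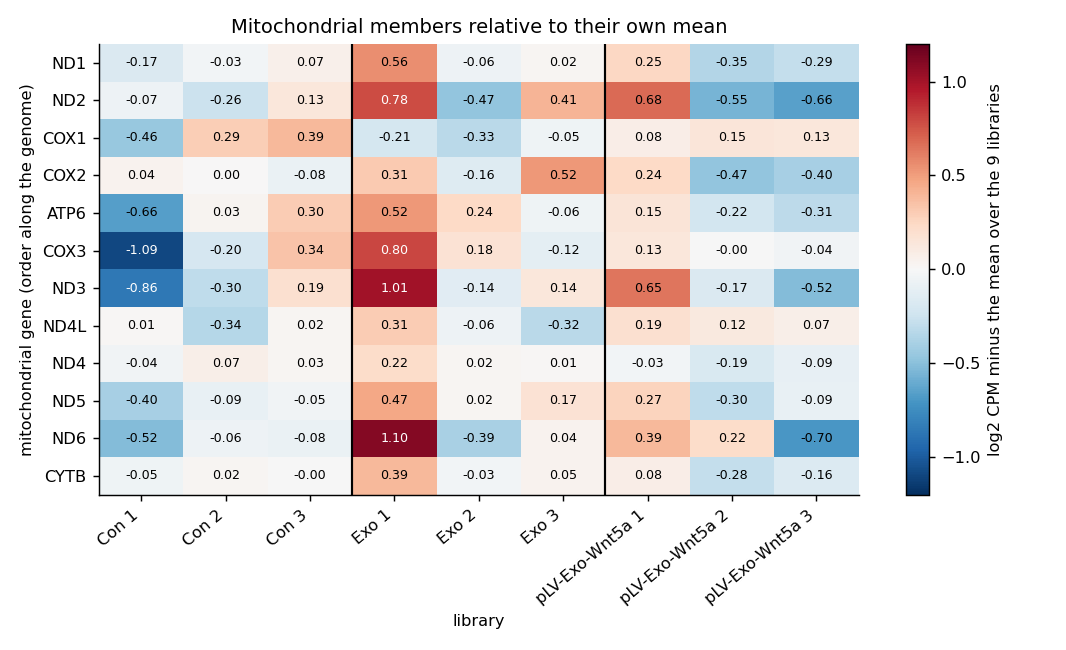
Log2 CPM of the 12 mitochondrial members that passed the filter, each minus its own mean over the 9 libraries, in the order of the genes along the mitochondrial genome (rows) and by library (columns). Exo replicate 1 has the highest value of 10 genes (ND3 at 1.01 and ND6 at 1.10 above the mean), whereas COX1 is at -0.21 there, and COX3 in Con replicate 1 has the lowest value, -1.09.

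The spread between replicates differed between the genomes. Among genes with a mean log2(CPM + 0.5) of at least 5, the SD within groups had a median of 0.281 over 9 mitochondrial members (0.0870 to 0.578) and 0.0853 over 76 nuclear members (0.0307 to 0.208). Over all 6011 genes at that level the median was 0.101, so nuclear members were a little steadier than the typical gene. The SD of ND2 (0.578) exceeded that of 99.95% of those 6011 genes, and ND6 (0.572), ND3 (0.566) and COX3 (0.492) followed. Without Con replicate 1 the medians were 0.300, 0.0557 and 0.0764, and COX1 went from 0.279 to 0.0958. Among members with at least 100 counts in every library, the ratio of the highest to the lowest CPM had a median of 1.98 over 11 mitochondrial genes (1.32 to 3.71) and 1.29 over 88 nuclear genes (1.08 to 2.35).

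**Figure D4:**
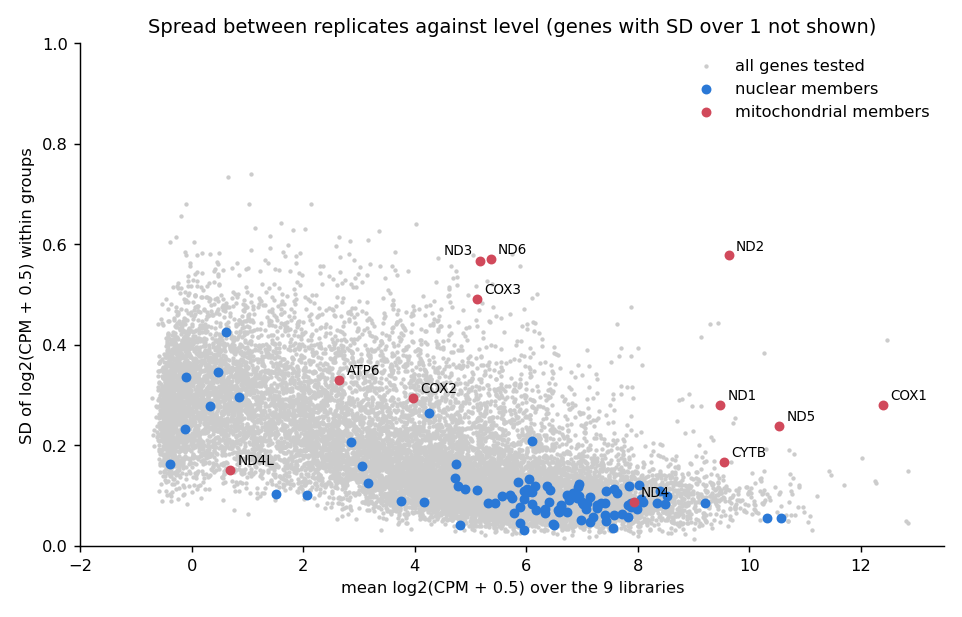
SD of log2(CPM + 0.5) within groups (y) against the mean log2(CPM + 0.5) over the 9 libraries (x), for all genes tested (grey), nuclear members (blue) and mitochondrial members (red, named). ND2 (0.578) and COX1 (0.279) stand above the mass of genes at their level, whereas ND4 (0.0870) lies among the nuclear members.

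Exo versus Con asked what BMSC exosomes changed. By the fold rule of the study (Q under 0.05, fold above 2 or below 0.5), 0.00664% of the 15070 genes tested differed with edgeR and no member did, nor did any with DESeq2. Q alone also gave no member with edgeR, where 0.00664% of all genes passed. At an unadjusted p under 0.05, 4 members were higher and 5 lower among 108 tested with edgeR, against 8.92% of all genes higher and 6.01% lower. DESeq2 gave 5 members at that threshold on the 2 groups and 12 on all 9 libraries, or 4.63% and 11% of members, where 14.3% and 18.6% of all genes passed. A share of 9 in 108 lies below the 14.9% of all genes in either direction, although without the filter on low counts 15.5% of members passed, against 13.4% of all genes. Beside these values, 8 of 14 neuron markers were higher at that threshold and 0 lower, 3 of 12 astrocyte markers were higher and 1 lower, and 5 of 11 microglia, 4 of 11 oligodendrocyte and 3 of 14 NSC markers were lower and none higher. Of 9 mesenchymal markers 1 was lower and 0 higher. The part of all these markers in the members' values was not tested.

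In Exo, 11 of 12 mitochondrial members had a log2FC above 0, with a median of 0.28, and COX1 alone was below (-0.32). Without Exo replicate 1 that median was 0.07, with 9 of 12 above 0, so much of it lay in 1 library. Of 96 nuclear members, 74 had a log2FC below 0 and their median was -0.09, where 49.7% of all genes lay below 0 with a median of 0.00. Genes of at least 5 on the log2 CPM scale had a median of -0.05 and 61.3% below 0, and 76 of the nuclear members are of that kind. In 22 of the 96 all Exo libraries lay below all Con libraries, against 12.4% of all genes and 20.2% of genes at that level, and in 5 they all lay above, against 10.9%. Without Con replicate 1 the nuclear median was -0.02 and the mitochondrial median was 0.17.

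Ndufaf4, an assembly factor of complex I, had the smallest p of the nuclear members in this comparison. It was at 4.10, 4.96 and 6.60 CPM in Con, 9.64, 7.87 and 8.06 CPM in Exo and 7.32, 7.22 and 6.57 CPM in pLV-Exo-Wnt5a. Each Exo library lay above each Con library, 1.63 times on the fitted scale (log2FC 0.70, standard error 0.20, Q = 0.265, edgeR). Q was 0.0159 with DESeq2 on all 9 libraries and 0.0417 with edgeR without Con replicate 3.

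Uqcrb, a small subunit of complex III, was at 25.4, 24.9 and 22.7 CPM in Con, 36.5, 29.6 and 29.3 CPM in Exo and 26.6, 24.1 and 26.0 CPM in pLV-Exo-Wnt5a. Exo lay above both other groups without overlap. Its log2FC was 0.37 for Exo versus Con (standard error 0.12, Q = 0.265, edgeR) and -0.30 for pLV-Exo-Wnt5a versus Exo (standard error 0.10, Q = 0.246, edgeR). Q for Exo versus Con was 0.0421 with DESeq2 on all 9 libraries. Both comparisons share the Exo libraries.

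The nuclear subunits with the smallest p that were lower in Exo than in Con had folds of 0.838 to 0.872. They were Atp5e (complex V; log2FC -0.25), Ndufs8, an iron-sulfur subunit of complex I (-0.26), Ndufb8 of complex I (-0.20), Atp5g2, a copy of the ATP synthase c-ring subunit (-0.22), and Cox8a of complex IV (-0.20), with Q from 0.294 to 0.314 (edgeR). Ndufs8 was at 112, 90.0 and 88.7 CPM in Con and 79.9, 81.8 and 83.1 CPM in Exo. For each of the 5, the highest value was in Con replicate 1 and the groups did not overlap. Without Con replicate 1, 2 nuclear members were lower at p under 0.05, without Exo replicate 1 or 3 there were 0, without Exo replicate 2 there was 1, and without Con replicate 3 there were 18. Of all genes, 12.1% passed that threshold in either direction without Con replicate 1, 8.68%, 8.64% and 12% without Exo replicates 1, 2 and 3, and 23.4% without Con replicate 3. The log2FC of these 5 subunits lay between -0.14 and -0.12 without Con replicate 1.

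For pLV-Exo-Wnt5a versus Exo, which compares exosomes of Wnt5a-overexpressing and vector-carrying donor cells, no member passed the same fold rule (0.159% of 15132 genes did, edgeR), and none did with DESeq2. Q under 0.05 alone was reached by 0.436% of all genes and no member with edgeR. At an unadjusted p under 0.05, 1 member was higher and 7 lower with edgeR, against 5.07% of all genes higher and 6.91% lower (12% in either direction). DESeq2 gave 9 on the 2 groups and 7 on all 9 libraries, or 8.33% and 6.42% of members, where 12.4% and 7.97% of all genes passed. Mitochondrial members had a median log2FC of -0.29, with 10 of 12 below 0, and COX1 (0.32) and ND4L (0.14) above. Without Exo replicate 1 the median was -0.07, with 8 of 12 below 0, and without pLV-Exo-Wnt5a replicate 1 it was -0.45, with 8 of 12 lower at p under 0.05 in place of 2. In that last fit 11.1% of all members and 10.2% of all genes passed in either direction. Of the markers, 6 of 12 for astrocytes were lower at that threshold and 2 higher, 3 of 14 for neurons were lower, and 5 of 11 for microglia, 3 of 11 for oligodendrocytes (1 lower) and 2 of 14 for NSCs were higher. Of 9 mesenchymal markers 2 were higher and 2 lower. At Q under 0.05 (edgeR), the astrocyte marker Gfap (log2FC 0.86, Q = 3.36e-05) and the NSC marker Vim (0.62, Q = 0.0389) were higher. The neuron marker Dcx (-0.60, Q = 0.0113) and the astrocyte marker Sparcl1 (-0.40, Q = 0.0288) were lower. The comparison shares the Exo libraries with Exo versus Con, so opposite signs in the 2 comparisons are not independent.

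Of 96 nuclear members, 5 were lower in pLV-Exo-Wnt5a than in Exo at p under 0.05 (5.21%, where 6.91% of all genes were) and 0 higher. A log2FC below 0 was found for 79 (48.6% of all genes) and the median was -0.06. In 30 of 96 all pLV-Exo-Wnt5a libraries lay below all Exo libraries, which held for 8.9% of all genes and 7.67% of genes of at least 5 on the log2 CPM scale. In 0 of 96 they all lay above, where 7.5% of all genes did. All 17 complex V subunits and all 4 of complex II had a log2FC below 0, none at p under 0.05.

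Ndufb1, an accessory subunit of complex I, was at 41.7, 40.7 and 42.6 CPM in Con, 46.7, 41.6 and 38.8 CPM in Exo and 33.0, 35.6 and 35.1 CPM in pLV-Exo-Wnt5a. The last group lay below both others. The log2FC was -0.28 against Exo (standard error 0.08, Q = 0.199) and -0.28 against Con (standard error 0.10, Q = 0.519, edgeR). Cox7c of complex IV was at 170 to 184 CPM in Exo and 155 to 165 CPM in pLV-Exo-Wnt5a (log2FC -0.15, Q = 0.342, edgeR). Cox8b, a muscle isoform, had a log2FC of -0.99 (Q = 0.401, edgeR) on 17 to 61 counts per library, with overlapping groups.

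For pLV-Exo-Wnt5a versus Con, the nuclear members had the most values past p of 0.05. No member passed the fold rule (0.0663% of 15089 genes did, edgeR), and none did with DESeq2. Q under 0.05 alone was reached by 0.0862% of all genes and no member with edgeR. At an unadjusted p under 0.05, 27 of 108 members were lower and 0 higher with edgeR, all 27 nuclear, against 4.15% of all genes lower and 4.2% higher (8.35% in either direction). DESeq2 gave 24 on the 2 groups and 36 on all 9 libraries, 1 of them higher in each case, or 22.2% and 33.0% of members, where 8.18% and 11.1% of all genes passed. Of genes of at least 5 on the log2 CPM scale, 410 of 5968 were lower and 244 higher.

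Of 96 nuclear members, 83 had a log2FC below 0 (49.2% of all genes), with a median of -0.15, equal to a fold of 0.899. In 47 of them all pLV-Exo-Wnt5a libraries lay below all Con libraries, against 9.41% of all genes and 14.5% of genes of at least 5 on the log2 CPM scale, and in 0 all lay above, against 7.67%. Without Con replicate 1 the median was -0.09, 19 nuclear members were lower at p under 0.05, and 48 lay below without overlap, where 14.5% of all genes did. In that fit 19.3% of members and 9.30% of all genes passed p of 0.05 in either direction. Leaving out 1 pLV-Exo-Wnt5a library left 9 to 13 nuclear members lower at that threshold. Of all genes, 4.07%, 5.87% and 7.61% passed it in either direction without pLV-Exo-Wnt5a replicates 1, 2 and 3. Con replicate 1 had the highest value of 60 of the 96 nuclear members, and pLV-Exo-Wnt5a replicate 2 had the lowest of 42. Of the markers, 4 of 14 for neurons were higher at p under 0.05 and 0 lower, and 2 of 11 for oligodendrocytes, 1 of 11 for microglia and 1 of 14 for NSCs were lower. Of 12 astrocyte markers 8 had a log2FC below 0, with 2 lower at that threshold, and 1 was higher, Gfap, an intermediate filament of astrocytes, at 2262 to 3055 CPM in Con and 3970 to 4082 CPM in pLV-Exo-Wnt5a. Of 10 mesenchymal markers 1 was higher and 1 lower.

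Values below 0 were found in each of the 5 complexes, where 49.2% of all genes lay below 0. At p under 0.05, 4.15% of all genes were lower, as were 6.87% of genes of at least 5 on the log2 CPM scale. For complex V, 17 of 17 nuclear subunits had a log2FC below 0 and 9 were lower at p under 0.05, with a median log2FC of -0.20. For complex III these counts were 7 of 8 and 4 (median -0.20), for complex I 36 of 37 and 7 (median -0.16), and for complex IV 14 of 17 and 6 (median -0.13). Complex II, which also works in the citric acid cycle, had 3 of 4 below 0, none at that threshold, and a median of -0.08. Of the 8 Ndufaf assembly factors 6 were above 0, none at p under 0.05, with a median of 0.08. For complexes I to V the medians without Con replicate 1 were -0.10, -0.05, -0.12, -0.09 and -0.12, with 6, 0, 3, 4 and 5 subunits lower at p under 0.05. In that fit 9.30% of all genes passed in either direction. The medians of the complexes were not tested against each other.

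Cox4i1, the regulatory subunit of complex IV, had the smallest p. It was at 740, 639 and 614 CPM in Con, 572, 584 and 598 CPM in Exo and 526, 537 and 526 CPM in pLV-Exo-Wnt5a, so the 3 groups did not overlap. Its log2FC was -0.33 against Con (standard error 0.09, Q = 0.412) and -0.13 against Exo (standard error 0.05, Q = 0.357, edgeR). Q against Con was 0.0292 with DESeq2 on all 9 libraries. The log2FC against Con was -0.24 without Con replicate 1 (Q = 0.190, edgeR).

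Atp5e, a stalk subunit of ATP synthase, was at 158, 133 and 127 CPM in Con, 120, 115 and 120 CPM in Exo and 110, 110 and 112 CPM in pLV-Exo-Wnt5a. The 3 groups did not overlap for this gene either, and the log2FC for pLV-Exo-Wnt5a versus Con was -0.34 (standard error 0.10, Q = 0.433, edgeR). Cox8a (log2FC -0.26) and Ndufb11, a complex I subunit (-0.28), also lay below Con in every library, with Q of 0.509 for both (edgeR). Without Con replicate 1, where each of these genes was highest, the log2FC was -0.23 for Atp5e and -0.18 for Cox8a and Ndufb11. Ndufb1, also of complex I (-0.28), had a Q of 0.519, and the remaining 22 of the 27 members had Q from 0.521 to 0.597 (edgeR) and log2FC from -0.17 to -0.91, the last being Cox8b at few counts.

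**Figure D5:**
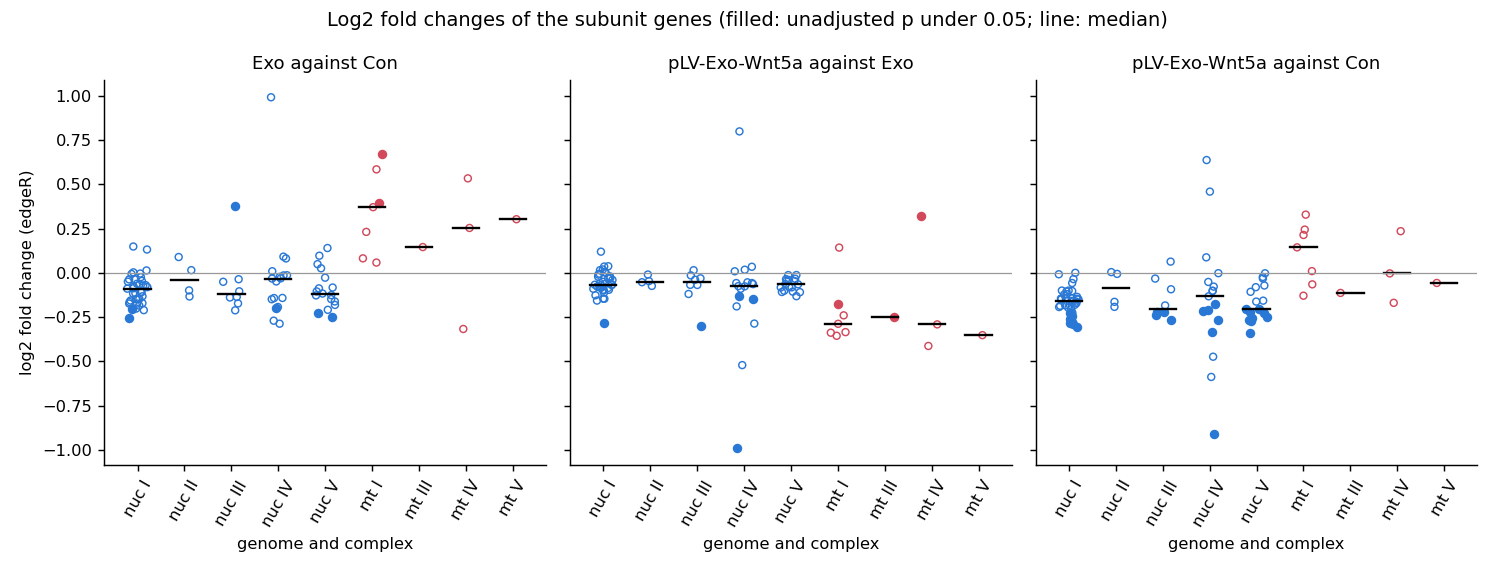
Log2 fold change (edgeR) of each subunit gene by genome and complex (nuc, nuclear; mt, mitochondrial), for the 3 comparisons, with filled points at an unadjusted p under 0.05 and a line at the median. In pLV-Exo-Wnt5a versus Con the nuclear medians of complexes I, III, IV and V lie between -0.20 and -0.13, whereas mitochondrial medians are above 0 in Exo versus Con and below 0 in pLV-Exo-Wnt5a versus Exo.

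Mitochondrial members of pLV-Exo-Wnt5a and Con had a median log2FC of 0.00, with 6 above and 6 below 0 and none at p under 0.05 (edgeR). The smallest mitochondrial Q was 0.671. Leaving out 1 library moved the mitochondrial median from -0.12 (without pLV-Exo-Wnt5a replicate 1, 3 lower at p under 0.05) to 0.18 (without pLV-Exo-Wnt5a replicate 3, 1 higher), with 2 higher without Con replicate 3 and 2 lower without Con replicate 1. Of all genes, 4.07% and 7.61% passed that threshold in either direction without pLV-Exo-Wnt5a replicates 1 and 3. Without Con replicate 3 the share was 14.4%, and without Con replicate 1 it was 9.30%.

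The subunit genes with the most counts in complexes II, III and V gave the scale of the nuclear values. Atp5b, the catalytic beta subunit of ATP synthase, was at 1516 to 1707 CPM in Con, 1490 to 1510 in Exo and 1403 to 1472 in pLV-Exo-Wnt5a, and the 3 groups did not overlap. Uqcrc1, a core protein of complex III, was at 338 to 430, 319 to 336 and 314 to 328 CPM in the same order. Sdha, the flavoprotein of complex II, was at 224 to 243, 235 to 240 and 213 to 257 CPM and overlapped throughout. Apart from Sdha, these genes were highest in Con replicate 1.

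Counts of complex IV isoforms lay mostly on the common, non-muscle forms in all 9 libraries. Cox4i2 had 6 to 17 counts where Cox4i1 had 19642 to 28507, and Cox6a2 had 7 to 35 where Cox6a1 had 9108 to 12781. Cox7a1 had 18 to 59 counts against 3058 to 4153 for Cox7a2, Cox8b 17 to 61 against 7669 to 10946 for Cox8a, and Ndufa4l2 3 to 32 against 4651 to 6195 for Ndufa4. Cox7b2 had counts of 4, 1 and 1 in Con, 6, 0 and 0 in Exo and 4, 0 and 0 in pLV-Exo-Wnt5a, and did not pass the filter. Cox6b2 was the alternative form with the largest share, 471 to 948 counts and at most 8.55% of its pair with Cox6b1. Near-identical copies such as Ndufb4b and Ndufb4c, and the pseudogene, could share reads with their parent genes, so their split is uncertain.

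Promoter windows from RefSeq (rat build GRCr8, 250 bases before to 50 after the gene start) were found by symbol for 83 of the 97 nuclear members. Core letters of the NRF1 site (GCATGCG), NRF1 being a regulator of respiratory genes, stood in 14.5% of member windows, 3.33% of all 33469 windows and 3.99% of the protein-coding ones. The Ets letters bound by GABP (CCGGAAG) stood in 27.7%, 8.75% and 10.7%, and the YY1 letters (ATGGCGG) in 21.7%, 4.80% and 6.00%. The Sp1 letters (GGGCGG) stood in 43.4%, 33.1% and 41.8%, so members were close to protein-coding windows there. TATAAA stood in 9.64% of member windows and 14.2% of all windows. Both strands were searched, the NRF1 letters can overlap their own reverse complement, and a match is a description of letters, not a binding site. The windows of the nuclear members with the smallest p in each comparison are shown, with the letters found in capitals: Ndufaf4 (Exo versus Con, chr5:43401545-43401844, plus strand), Ndufb1 (pLV-Exo-Wnt5a versus Exo, chr6:126888815-126889114, minus strand) and Cox4i1 (pLV-Exo-Wnt5a versus Con, chr19:65630133-65630432, plus strand).
Ndufaf4: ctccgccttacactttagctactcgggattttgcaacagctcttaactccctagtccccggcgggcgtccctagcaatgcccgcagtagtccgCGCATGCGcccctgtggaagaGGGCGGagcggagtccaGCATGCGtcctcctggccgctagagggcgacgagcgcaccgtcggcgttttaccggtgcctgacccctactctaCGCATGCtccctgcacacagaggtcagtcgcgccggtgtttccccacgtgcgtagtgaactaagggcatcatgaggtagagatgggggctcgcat
Ndufb1: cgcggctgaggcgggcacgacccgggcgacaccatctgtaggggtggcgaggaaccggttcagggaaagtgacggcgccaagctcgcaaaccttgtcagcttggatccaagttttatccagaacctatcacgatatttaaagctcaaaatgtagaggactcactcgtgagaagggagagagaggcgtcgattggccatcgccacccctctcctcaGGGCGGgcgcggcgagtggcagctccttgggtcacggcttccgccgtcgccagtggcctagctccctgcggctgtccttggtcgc
Cox4i1: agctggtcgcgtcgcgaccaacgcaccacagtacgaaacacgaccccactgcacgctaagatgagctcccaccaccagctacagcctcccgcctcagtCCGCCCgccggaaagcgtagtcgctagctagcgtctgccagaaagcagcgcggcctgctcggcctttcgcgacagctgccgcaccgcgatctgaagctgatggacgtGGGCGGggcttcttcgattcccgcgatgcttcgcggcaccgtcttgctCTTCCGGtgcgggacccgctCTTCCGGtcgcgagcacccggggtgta
Ndufaf4 held 4 NRF1 matches, an overlapping pair among them, and 1 Sp1 match, whereas Ndufb1 held 1 Sp1 match and Cox4i1 held 2 Sp1 and 2 Ets matches.

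Genes outside the rule that serve the pathway had few values past an unadjusted p of 0.05, and none of those lists had a member at Q under 0.05 in any comparison (edgeR). For Exo versus Con, 3 of 18 genes of mitochondrial DNA transcription and maintenance were higher at an unadjusted p under 0.05 and 0 lower, with a median log2FC of 0.13. Over all genes 8.92% were higher and 6.01% lower, which is the background for the small lists that follow. Mterf3, a regulator of mitochondrial transcription and ribosome assembly, was at 14.0, 18.8 and 24.6 CPM in Con and 32.4, 25.1 and 24.2 CPM in Exo, with overlapping groups (log2FC 0.50, Q = 0.293, edgeR). Tefm, the mitochondrial transcription elongation factor, had a log2FC of 0.44 (Q = 0.308, edgeR). Of 35 assembly factors outside the rule, 4 were higher and 0 lower, led by Tmem70 (complex V assembly, log2FC 0.34) and Sdhaf3 (complex II assembly, log2FC 0.75). Of 16 genes of mitochondrial RNA processing 1 was higher, Grsf1 (0.22), and 1 lower, Hsd17b10 (-0.28), a subunit of mitochondrial RNase P.

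For the same comparison, 3 of 17 citric acid cycle genes were higher, with Idh3a (log2FC 0.27) and Dld (0.61) leading. Of 22 glycolysis genes 1 was higher, the lactate transporter Slc16a1 (0.47), of 12 cytochrome c and coenzyme Q genes 2 were higher, Pdss1 (0.63) and Coq3 (0.37), and of 9 antioxidant and uncoupling genes 1 was higher, Sod2 (0.18). None of 10 biogenesis regulators passed p of 0.05. Each of these named genes had Q between 0.265 and 0.326 (edgeR).

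For pLV-Exo-Wnt5a versus Exo, the genes past p of 0.05 in these lists were all lower, at most 1 a list, where 6.91% of all genes were lower. Ppargc1a, a coactivator of mitochondrial biogenesis, was at 5.25, 4.18 and 4.72 CPM in Exo and 3.56, 2.16 and 3.51 CPM in pLV-Exo-Wnt5a, without overlap (log2FC -0.60, standard error 0.22, Q = 0.312, edgeR). Con overlapped both, at 1.97, 3.29 and 4.63 CPM. Cyc1, the cytochrome c1 subunit of complex III that the name rule leaves out, had a log2FC of -0.13 (Q = 0.352, edgeR). Mterf3 (-0.26), Grsf1 (-0.15) and Tmem126b of complex I assembly (-0.46) were also among them. None of 22 glycolysis genes and 9 antioxidant genes passed.

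For pLV-Exo-Wnt5a versus Con, 3 of 12 cytochrome c and coenzyme Q genes were lower, with Coq8a (log2FC -0.46) and Coq9 (-0.23) leading, and 0 higher, against 4.15% of all genes lower and 4.2% higher. Of 22 glycolysis genes 1 was higher, Slc16a1 (0.45), and 1 lower, Ldhb (-0.25). Of 18 genes of mitochondrial DNA transcription and maintenance 1 was higher, Tefm (0.47), and 1 lower, Polg (-0.23), the mitochondrial DNA polymerase. Of 17 citric acid cycle genes 1 was higher, Pdhx (0.26), and 2 lower, with Idh3g (-0.21) leading. Uqcc2 of complex III assembly (-0.28), Hsd17b10 (-0.32) and Txn2, mitochondrial thioredoxin (-0.23), were each the one gene past p of 0.05 in their lists, all lower, and none of 10 biogenesis regulators passed it.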

How the data were processed

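9 RNA-seq libraries of cultured NSCs were analysed, 3 per group. The values deposited by the authors are whole, unnormalized counts. The paper's methods name HISAT2, whereas the submitters' processing notes name Bowtie2, RSEM 1.3.1 and DESeq2 1.4.5; the counts may therefore be rounded estimates. The genome build and annotation are not given in the sources used here, and the symbols and gene numbers are those of the mouse although the cells are described as rat. All libraries carry the same batch label.

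From the counts, genes kept by filterByExpr in the 6 libraries of a comparison were scaled with TMM factors, and groups were compared by quasi-likelihood F tests (edgeR 4.0.16, R 4.3.3). P-values were adjusted over all genes (Benjamini-Hochberg, Q), and all tests were two-sided. Standard errors were taken from the test statistic. CPM values used TMM over all 9 libraries. Log2(CPM + 0.5) served for the spread between replicates. DESeq2 1.42.0, other normalizations and filters, the replicate number as a block and leaving out each library were the alternatives. The steps were tested on simulated data. Replicate numbers were not treated as pairs, since correlations of same-numbered deviations over all genes past the filter were -0.35 to 0.14.

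Members, gene lists and motifs were chosen with earlier results of these data known. Named members were those with Q under 0.05, up to 5 nuclear and 3 mitochondrial per direction and comparison with the smallest p under 0.05, the mitochondrial genes, isoform pairs, the most counted subunit of each complex, members below the filter and up to 2 genes per list and comparison. Levels were not compared between genes, since gene lengths were not used. Values of 2 genes that this rule named are not reported here.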

Additional observations from a re-analysis of the deposited data

How the results depend on the processing

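The absence of members past Q under 0.05 with the fold limit held in all 3 comparisons under each alternative run, with 0 members throughout. The number of members at an unadjusted p under 0.05 did depend on settings. For Exo versus Con (9) it was 5 with DESeq2 on 2 groups, 14 with edgeR on all 9 libraries, 17 without the filter (4.63%, 12.8% and 15.5% of members, against 14.3%, 18.2% and 13.4% of all genes), 2 with an absolute log2FC above 0.58, and 3 to 23 when 1 library was left out (23 without Con replicate 3, 3 without Exo replicate 1, 4 without Exo replicate 3). The share of all genes past it moved likewise, with 23.4% at that threshold without Con replicate 3 and 8.68% without Exo replicate 1, where members had 21.3% and 2.78%. For pLV-Exo-Wnt5a versus Exo (8) it was 5 with mitochondrial members left out, 1 with the log2FC limit, and 5 to 12 when 1 library was left out (5 without Exo replicate 1 or pLV-Exo-Wnt5a replicate 2). For pLV-Exo-Wnt5a versus Con (27) the number was 1 with the log2FC limit and 9 to 39 when 1 library was left out (12, 9 and 14 without pLV-Exo-Wnt5a replicates 1, 2 and 3, or 11.1%, 8.26% and 12.8% of members, against 4.07%, 5.87% and 7.61% of all genes). The 39 were found without Con replicate 3, or 36.1% of members, against 14.4% of all genes. For the log2FC limit the share of all genes is not given here. The cause of these moves was not tested. With the replicate number as a block the counts were 3, 15 and 23, or 2.78%, 13.9% and 21.3% of members, against 9.40%, 12.4% and 9.23% of all genes. The second thus went from below the share of all genes (7.41% against 12%) to above it. For pLV-Exo-Wnt5a versus Exo the block put 8 mitochondrial members lower at that threshold in place of 2, and ND1 (log2FC -0.29) at Q of 0.0463 (edgeR). The check of same-numbered deviations ran over all genes past the filter, not over the mitochondrial members alone. In each group replicate 1 had the lowest COX1 share of mitochondrial counts and the highest ND share. A replicate effect on these members was not tested.

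The difference of the mitochondrial to nuclear log2 ratio for pLV-Exo-Wnt5a versus Exo (0.11) was -0.15 as a mean of log2 CPM over members and -0.23 without COX1, so its sign rests on COX1. For Exo versus Con (0.07) these values were 0.31 and 0.38, and for pLV-Exo-Wnt5a versus Con (0.18) they were 0.16 and 0.16. Leaving out 1 library gave -0.16 to 0.23 for Exo versus Con, 0.0023 to 0.19 for pLV-Exo-Wnt5a versus Exo and -0.05 to 0.34 for pLV-Exo-Wnt5a versus Con. Nuclear members lower with no overlap numbered 22 for Exo versus Con and 48 for pLV-Exo-Wnt5a versus Con without Con replicate 1, an alternative chosen after seeing the data, or 22.9% and 50.0% of them, against 16.2% and 14.5% of all genes and 23.5% and 18.2% of genes of at least 5 on the log2 CPM scale. For 22 results on single genes, 265 of 325 alternatives kept the direction and the side of the threshold, 60 were weaker and 0 reversed. ATP8 and Cox7b2 did not pass the filter on low counts in the main fits, and the cause of their low counts was not tested.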
